A study of Mus musculus with 94 samples.

Results

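The 8 genes described here encode transcription factors of the primitive streak and of the mesoderm that leaves it. They are the T-box factors T (brachyury), Eomes and Tbx6, the basic helix-loop-helix factors Mesp1, Msgn1 and Tcf15, and the homeodomain factors Mixl1 and Gsc (goosecoid). They were taken by gene symbol from 4 count tables, and were chosen with earlier results of these data known. All 8 had a row in each table, among 24421 genes for WAPL on days 4 to 7, 14997 for WAPL on days 7 to 10, 15363 for RAD21 RNA and 22529 for RAD21 PRO-seq. The gene labels in the files place T on chromosome 17, Eomes on 9, Tbx6 and Mesp1 on 7, Msgn1 and Gsc on 12, Tcf15 on 2 and Mixl1 on 1.

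In the gastrulating mouse embryo, epiblast cells move through the primitive streak and become mesoderm and definitive endoderm. Wnt, Nodal, BMP and FGF signals turn on T and Eomes, which are needed for streak cells to leave the epiblast and to start the mesoderm and endoderm programmes. Mixl1 and Gsc mark the streak and its anterior end, Mesp1 marks the earliest mesoderm with cardiac potential, and Msgn1, Tbx6 and Tcf15 belong to presomitic and paraxial mesoderm.

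Of the 94 samples of the series, 18 were used. They comprise 14 libraries of poly(A) RNA and 4 of PRO-seq, in which engaged RNA polymerases are mapped and summed per gene. All came from embryonic stem cells of a CAST/Ei x 129/Sv/Jae cross labelled Tsix-stop, grown into embryoid bodies without leukaemia inhibitory factor, with an FKBP degron on RAD21 (a core subunit of the cohesin ring) or on WAPL (which takes cohesin off chromatin). The degron protein is degraded when the small molecule dTAG-13 is added at 500 nM, and controls received the same volume of DMSO. The comparisons ask how these genes respond when cohesin is lost or can no longer be released. WAPL cells were treated for 3 days and harvested at day 7 (clone H7 in replicates 1 and 2, and clone H2 once, for each treatment) or at day 10 (clone H7, replicates 1 and 2). RAD21 cells were treated for 8 h before harvest at day 7 for PRO-seq or day 10 for RNA, with 1 library of clone C4 and 1 of clone G9 for each treatment. Control and treated cells of a set therefore carry the same degron, and each line is a single clone, so a clone and its line cannot be told apart. Before differentiation the stem cells had been kept on a layer of irradiated embryonic fibroblasts.

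Total counts ran from 8413212 (clone H2 with DMSO) to 35388461 per library, and 3 counts, taken as the limit of detection, were worth 0.0835 to 0.374 CPM (counts relative to library size, scaled by library total and TMM factor). Intervals on counts cover counting error only. CPM is not corrected for gene length, so levels are compared within a gene and not between genes, and tables were normalized separately. Nothing in the labels says that the libraries of a group were separate cultures, so p-values rest on the spread between these libraries, which may be technical. In a mixed culture, fewer cells of a type and less RNA per cell cannot be told apart. None of the 14 pluripotency markers examined was at 0 in any group, and their summed level was 1840 to 3678 CPM in the RNA libraries. Because dTAG-13 removes the protein, transcript levels of the tagged genes are no check of the labels. Wapl differed by log2 0.02 (adjusted p = 0.939) and -0.01 (adjusted p = 0.999) in the 2 WAPL windows, and Rad21 by 0.14 (adjusted p = 0.118) and 0.16 (adjusted p = 0.151) in the RAD21 RNA and PRO-seq sets. Adjusted p-values come from the quasi-likelihood test of edgeR, by the Benjamini-Hochberg method over all genes tested, and a gene was called at an adjusted p under 0.05. That test shares its estimate of the spread over genes. In the RAD21 sets, with 1 residual degree of freedom, SE and p-values rest mostly on the shared estimate and little on the gene's own spread. A very small p there does not show that the 2 clones changed alike. Changes are given on the log2 scale, dTAG-13 relative to DMSO, with a standard error (SE).

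The windows upstream of the transcription start are shown for 4 of the genes, which differ in the motifs of the factors that act in the streak. These genes are T, Mesp1 and Msgn1, which held the TCF/LEF core described below, and Eomes, which did not. The windows are the 250 bases before the start in RefSeq's annotation of the build GRCm38.p6, read in the direction of transcription. The mouse build named in the submitters' processing notes is another one, mm9. Capitals mark the core of the TCF/LEF motif, through which Wnt signals act (CTTTGA on either strand), and the T-box motif (AGGTGTNA on either strand).
T (chr17:8434173-8434422, plus strand): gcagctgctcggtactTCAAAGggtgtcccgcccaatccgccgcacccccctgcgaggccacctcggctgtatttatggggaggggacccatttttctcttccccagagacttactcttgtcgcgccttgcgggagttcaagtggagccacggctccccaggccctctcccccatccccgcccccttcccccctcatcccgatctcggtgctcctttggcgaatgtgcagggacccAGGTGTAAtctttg
Eomes (chr9:118477939-118478188, plus strand): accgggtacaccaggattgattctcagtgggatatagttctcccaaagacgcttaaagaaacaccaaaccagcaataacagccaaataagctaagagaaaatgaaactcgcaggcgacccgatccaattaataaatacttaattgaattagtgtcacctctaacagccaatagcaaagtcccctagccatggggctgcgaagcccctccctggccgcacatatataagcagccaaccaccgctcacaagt
Mesp1 (chr7:79793591-79793840, minus strand): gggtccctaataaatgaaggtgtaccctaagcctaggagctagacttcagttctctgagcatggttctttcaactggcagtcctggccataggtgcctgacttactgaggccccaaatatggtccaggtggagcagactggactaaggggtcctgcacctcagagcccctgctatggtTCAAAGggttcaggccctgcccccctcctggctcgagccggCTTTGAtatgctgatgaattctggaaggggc
Msgn1 (chr12:11208949-11209198, minus strand): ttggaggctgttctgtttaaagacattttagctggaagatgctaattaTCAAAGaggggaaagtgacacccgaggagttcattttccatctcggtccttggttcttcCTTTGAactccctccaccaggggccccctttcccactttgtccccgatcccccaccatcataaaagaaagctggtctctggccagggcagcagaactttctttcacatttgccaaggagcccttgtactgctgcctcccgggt
The T window held 1 TCF/LEF core, 234 to 229 bases before the start, and 1 T-box motif, 14 to 7 bases before it. Mesp1 held 2 TCF/LEF cores (72 to 67 and 31 to 26 bases before the start) and Msgn1 held 2 (202 to 197 and 143 to 138 bases before it). The Eomes window held neither motif. Of the 6 members with a window in the RefSeq table, 3 held a TCF/LEF core and 1 a T-box motif, against 13.8% and 2.68% of 32851 windows of the same length. No match of the 2 motifs overlapped another. Tbx6 and Gsc held neither, but each held TATAAA on the strand of the gene, as did 7.59% of all windows. The windows of Mixl1 and Tcf15 are named only. A match is a description of these letters and shows no binding.

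WAPL degradation on days 4 to 7 moved the T-box pair T and Eomes in opposite directions. Eomes RNA fell to between 0.319 and 0.397 of its control level, while T rose by a smaller amount. Mesp1 and Gsc also fell. Of the 8 genes, 7 had enough counts to be tested, and 1 was called higher and 3 lower, where 15.2% of 14544 genes were called (9.46% higher and 5.73% lower). The median log2 change was -0.67 over the 7 members and -0.0067 over all genes. With the replicate number as a block the test called 3993 genes instead of 2209, and the same 4 members.

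Eomes, the T-box factor of the anterior streak and early endoderm and mesoderm, stood at 139, 135 and 205 CPM with DMSO (clone H7 replicates 1 and 2, then clone H2) and at 55.1, 43.2 and 74.2 CPM with dTAG-13. Every treated library was below every control library. The log2 change was -1.48 (SE 0.11, adjusted p = 0.000738, edgeR's quasi-likelihood test). It stayed between -1.58 and -1.38 when each library was left out, with adjusted p-values of 0.000135 to 0.0197. It was called under each alternative run.

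T, the factor of the whole streak and of the axial mesoderm, stood at 166, 159 and 217 CPM with DMSO and at 201, 189 and 351 CPM with dTAG-13. It was higher in each of the 3 pairs, and the groups overlapped because the control of clone H2 was above both treated libraries of clone H7. The log2 change was 0.41 (SE 0.11, adjusted p = 0.0459). The call depended on clone H2: without its DMSO or its dTAG-13 library the change was 0.26 and the adjusted p 0.333 or 0.33. It was also lost without the DMSO library of H7 replicate 1 (adjusted p = 0.0939) or replicate 2 (0.147). Tbx6, which directs presomitic mesoderm away from a neural fate, had only 10 to 37 counts per library, at 1.03, 1.37 and 1.87 CPM with DMSO and 0.773, 0.663 and 1.31 CPM with dTAG-13. It was lower in 3 of 3 pairs without passing the test (log2 -0.67, SE 0.28, adjusted p = 0.15).

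Among the basic helix-loop-helix genes, Mesp1 was at 0.890, 0.519 and 1.62 CPM with DMSO and at 0.232, 0.139 and 0.848 CPM with dTAG-13. These values rest on 32, 11 and 13 counts against 3, 4 and 11. The gene was lower in all 3 pairs (log2 -1.57, SE 0.44, adjusted p = 0.0475). Leaving out any 1 library ended the call (adjusted p = 0.0537 to 0.161), as did DESeq2 (0.09) and scaling by library totals (0.0562). Tcf15, a factor of paraxial mesoderm that is also expressed in the early epiblast, stood at 23.8, 17.3 and 19.1 CPM with DMSO and 29.7, 14.4 and 27.1 CPM with dTAG-13. The groups overlapped (log2 0.21, SE 0.27, adjusted p = 0.635). Msgn1, a regulator of presomitic mesoderm downstream of Wnt and T-box factors, had 4, 1 and 1 counts with DMSO and 3, 1 and 8 with dTAG-13, at or near the limit of detection, and was not tested.

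Of the homeodomain genes, Gsc was called and Mixl1 was not. Gsc was at 4.34, 4.62 and 13.96 CPM with DMSO and at 2.40, 1.46 and 7.63 CPM with dTAG-13, lower in each of the 3 pairs. Its log2 change was -1.12 (SE 0.22, adjusted p = 0.0144). The adjusted p was 0.0515 without the DMSO library of H7 replicate 1, 0.0807 without the DMSO library of clone H2 and 0.0779 without its dTAG-13 library. Mixl1, a Nodal- and BMP-responsive factor of the streak, stood at 12.1, 10.2 and 22.9 CPM with DMSO and 10.1, 7.95 and 22.2 CPM with dTAG-13. It was lower in each of the 3 pairs without passing the test (log2 -0.23, SE 0.16, adjusted p = 0.347), and clone H2 stood above clone H7 with either treatment. With clone H7 alone, or without the clone term, Eomes was the 1 member still called.

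**Figure D1:**
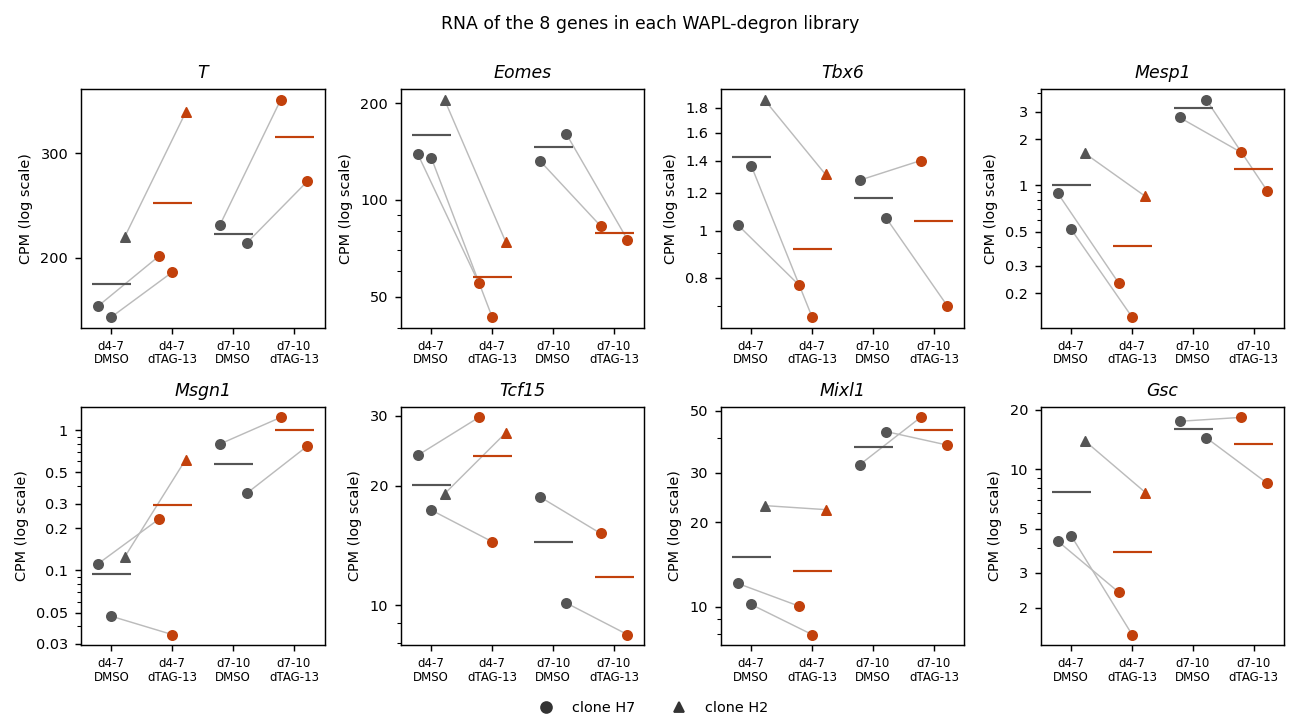
Level of each gene in every WAPL-degron RNA library, in CPM on a log axis, for the day 4 to 7 and day 7 to 10 windows with DMSO (grey) and dTAG-13 (orange). Circles are clone H7 and triangles clone H2, bars are group means, and lines join libraries with the same number or clone. The treated Eomes libraries, at 43.2 to 83.0 CPM, lie below all control libraries, at 133 to 205 CPM, in both windows.

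Clones H2 and H7 differed at day 7 in their levels of these genes. Over both treatments, 4 of the 7 tested members were higher in H2 than in H7, and none lower, where 3.91% of 14544 genes were called (1.77% higher and 2.15% lower). Gsc was higher by log2 1.83 (SE 0.22, adjusted p = 0.0049), Mixl1 by 1.18 (SE 0.16, adjusted p = 0.0082), T by 0.64 (SE 0.12, adjusted p = 0.0239) and Eomes by 0.59 (SE 0.11, adjusted p = 0.0311). Without the DMSO library of H7 replicate 1 or 2, T (adjusted p = 0.0607 and 0.0843) and Eomes (0.106 and 0.121) were no longer called. Clone H2 has 1 library per treatment, so clone and culture cannot be told apart.

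Markers of other cells moved in the same libraries. Of the pluripotency markers 1 of 14 was higher and 1 lower (3357 to 3678 CPM with DMSO and 2693 to 3593 CPM with dTAG-13). Of the primed epiblast markers 6 of 6 tested were lower, and their summed level was 1496 to 2306 CPM with DMSO and 852 to 1110 CPM with dTAG-13. Of the trophoblast markers 4 of 7 were higher (370 to 610 CPM against 1083 to 1384 CPM), with the placental marker Tpbpa at 0. Of the fibroblast and feeder markers 6 of 9 were higher and 1 lower (107 to 214 CPM against 455 to 619 CPM). That list holds the smooth muscle actin Acta2, which rose by log2 2.38 and on average made up most of the summed level with dTAG-13. Of the cardiac and muscle markers 4 of 9 were higher (42.4 to 93.0 CPM against 101.6 to 168.8 CPM). Definitive endoderm markers had 1 of 8 higher and 2 lower (18.5 to 50.2 CPM against 21.5 to 31.9 CPM, with Ttr at 0 after dTAG-13), neural markers 1 of 8 higher and 1 lower (332 to 399 CPM against 214 to 266 CPM), and haemato-endothelial markers 1 of 9 higher and 2 lower (37.4 to 74.8 CPM against 53.9 to 77.6 CPM). Their part in the changes of T, Eomes, Mesp1 and Gsc was not tested.

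WAPL degradation on days 7 to 10 gave no call for any of the 8 genes, all tested, in the main fit, which had no replicate block. There 0% of 14110 genes were called. At an unadjusted p under 0.05 edgeR's quasi-likelihood test had 926 genes, and DESeq2 called 44 genes and no member. With 2 libraries per group the main fit had 2 residual degrees of freedom. With the replicate number as a block, over only 2 pairs, edgeR's test called 5141 genes and 4 members. These were Eomes (adjusted p = 6.14e-13), T (1.02e-06), Mesp1 (0.000195) and Gsc (0.0369). The calls in this window thus depend on the block, and the values below are those of the main fit. T was higher and Eomes lower with dTAG-13 in each of the 2 pairs, the same directions as in the earlier window. T was at 227 and 212 CPM with DMSO (replicates 1 and 2) and at 369 and 269 CPM with dTAG-13, with both treated libraries above both controls (log2 0.54, SE 0.21, adjusted p = 0.753). Eomes was at 133 and 160 CPM with DMSO and at 83.0 and 75.3 CPM with dTAG-13, again without overlap (log2 -0.89, SE 0.17, adjusted p = 0.663, unadjusted p = 0.00371 by edgeR).

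Mesp1 stood at 2.76 and 3.59 CPM with DMSO and at 1.65 and 0.920 CPM with dTAG-13 (log2 -1.37, SE 0.40, adjusted p = 0.691). Its groups did not overlap either. The share of all genes whose groups lay apart was not counted, here or in the RAD21 sets. The separation of T, Eomes and Mesp1 is therefore a description only. Msgn1 had 15 and 7 counts with DMSO and 15 and 21 with dTAG-13 (log2 0.74, SE 0.55, adjusted p = 0.906). The remaining members overlapped between groups, with log2 changes of -0.24 for Tbx6, -0.31 for Tcf15, 0.19 for Mixl1 and -0.27 for Gsc. Tcf15 was 18.7 and 10.1 CPM in the DMSO replicates, so that its controls differed more from each other than each did from its treated partner (15.1 and 8.42 CPM). None of the marker genes listed above was called by the main fit in this window. The summed trophoblast markers were at 1601 to 1791 CPM with DMSO and 2228 to 2632 CPM with dTAG-13, and the primed epiblast markers at 961 to 1277 CPM and 565 to 727 CPM.

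The response was not shown to differ between the windows. A test of that difference called none of the 8 members and 0% of 14326 genes, with 423 genes at an unadjusted p under 0.05 by edgeR and 4 called by DESeq2. For Eomes the later change was less negative by log2 0.60 (SE 0.19, unadjusted p = 0.0126, adjusted p = 1 by edgeR's quasi-likelihood test). For T the difference was 0.15 (SE 0.22, adjusted p = 1).

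In control cells of clone H7, 3 of the 8 members were higher at day 10 than at day 7 and none lower, where 6% of 14326 genes were called (4.47% higher and 1.53% lower). Mesp1 was higher by log2 2.19 (SE 0.39, adjusted p = 0.0169), Gsc by 1.85 (SE 0.33, adjusted p = 0.0182) and Mixl1 by 1.73 (SE 0.19, adjusted p = 0.00357). With both days scaled together, as in this fit, Mixl1 went from 12.2 and 10.3 CPM at day 7 to 31.4 and 41.5 CPM at day 10. Eomes differed by 0.05 (adjusted p = 0.886) and T by 0.46 (adjusted p = 0.136). Msgn1, 2.95 higher on the log2 scale (SE 0.78), had an adjusted p of 0.0671 with edgeR and 0.0401 with DESeq2. Mesp1 was no longer called without the DMSO library of replicate 2 from day 7 (adjusted p = 0.0925) or from day 10 (0.108), and Gsc without those (0.086 and 0.0574) or without replicate 1 from day 7 (0.0947). The fit used all 10 WAPL libraries, those of clone H2 and the treated ones included. With the clone H7 libraries alone, Gsc was at 1.79 and was not called (adjusted p = 0.0593 by edgeR's test). The days are in separate tables, so day and table cannot be told apart.

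RAD21 degradation for 8 h lowered nascent transcription of T by the largest amount among the 7 members tested. PRO-seq at day 7 gave 4 members lower and none higher of the 7 tested, where 10.7% of 16498 genes were called (5.96% higher and 4.73% lower). The lower ones were T, Eomes, Tcf15 and Gsc. The median log2 change was -0.82 over the 7 members and -0.00273 over all genes.

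T was at 19.2 CPM in clone C4 with DMSO and 5.26 CPM with dTAG-13, and at 145 and 42.4 CPM in clone G9. The treated level was 0.274 of control in C4 (95% interval from counts 0.224 to 0.333) and 0.292 in G9 (0.267 to 0.3198). The treated level of G9 was above the control level of C4, but both clones dropped by nearly the same ratio (log2 -1.81, SE 0.11, adjusted p = 1e-13). Eomes was at 22.2 and 12.2 CPM in C4 and at 84.3 and 47.5 CPM in G9, ratios of 0.549 and 0.563 (log2 -0.84, SE 0.11, adjusted p = 6.2e-07). Tbx6 was at 3.23 and 4.78 CPM in C4 and at 5.61 and 5.56 CPM in G9, and was not called (log2 0.30, SE 0.25, adjusted p = 0.517).

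Tcf15 was at 33.7 and 15.7 CPM in C4 and at 16.5 and 10.0 CPM in G9. Both treated libraries were below both controls (log2 -0.95, SE 0.14, adjusted p = 1.67e-05). Mesp1, on 18 and 7 counts in C4 and 42 and 23.5 in G9, had treated levels of 0.586 and 0.553 of control and did not pass the test (log2 -0.82, SE 0.48, adjusted p = 0.307). Msgn1 had 9 and 10 counts in C4 and 2 and 6 in G9, and was not tested.

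Gsc stood at 2.17 and 1.55 CPM in C4 and at 12.98 and 6.80 CPM in G9 (log2 -0.76, SE 0.25, adjusted p = 0.0445). Its call was lost with DESeq2 (adjusted p = 0.444) and with expected counts that were not rounded (0.0529). The change was -0.48 from C4 alone and -0.93 from G9 alone, values with no test. Mixl1 was at 1.74 and 1.98 CPM in C4 and at 27.96 and 15.3 CPM in G9, so that its treated level was 1.14 of control in C4 (0.758 to 1.69) and 0.548 in G9 (0.463 to 0.647). Over both clones it was not called (log2 -0.53, SE 0.21, adjusted p = 0.106), and it was with no filter on low counts (0.0487) and with limma-voom (0.0234). Each clone has 1 library per treatment, the test had 1 residual degree of freedom, and without the clone term no gene was called.

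RNA at day 10 in the same clones, again after 8 h of RAD21 degradation, gave 3 members lower and 2 higher of the 8 tested, where 18.7% of 14470 genes were called (9.83% higher and 8.89% lower). Tcf15, T and Eomes fell, and Mixl1 and Gsc rose. The median log2 change was -0.0432 over the members and 0.00514 over all genes.

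Tcf15 RNA was at 16.1 CPM with DMSO and 6.28 CPM with dTAG-13 in C4, and at 9.72 and 3.36 CPM in G9. Both treated libraries were below both controls, at 0.390 of control in C4 (0.323 to 0.469) and 0.346 in G9 (0.248 to 0.474). The log2 change was -1.41 (SE 0.14, adjusted p = 1.64e-20). T was at 381 and 275 CPM in C4 and at 253 and 202 CPM in G9, ratios of 0.723 and 0.797 (log2 -0.40, SE 0.07, adjusted p = 1.39e-07). Eomes, at 289 and 260 CPM in C4 and 370 and 315 CPM in G9, changed least of the called members (log2 -0.19, SE 0.07, adjusted p = 0.0338), and DESeq2 did not call it (0.397).

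Mixl1 was at 128 and 153 CPM in C4 and at 106 and 145 CPM in G9. Both treated libraries were above both controls (log2 0.36, SE 0.06, adjusted p = 2.03e-08). Gsc was at 41.7 and 50.7 CPM in C4 and at 52.3 and 63.3 CPM in G9, with the same ratio of 1.22 and 1.21 in the clones (log2 0.28, SE 0.06, adjusted p = 0.000115), and DESeq2 did not call it (0.377). Tbx6 (4.36 and 4.54 CPM in C4, 3.35 and 4.86 CPM in G9), Mesp1 (6.00 and 5.34 CPM, then 12.6 and 12.6 CPM) and Msgn1 (2.89 and 3.07 CPM, then 1.10 and 0.897 CPM) were not called, with adjusted p-values of 0.374, 0.784 and 0.981. The design is that of the PRO-seq set, and without the clone term 1 gene and no member was called.

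Set side by side, Tcf15, T and Eomes were lower in both RAD21 sets. T differed by log2 -1.81 in PRO-seq and -0.40 in RNA, Tcf15 by -0.95 and -1.41, and Eomes by -0.84 and -0.19. Gsc had opposite signs, -0.76 and 0.28. The sets differ in assay, in day and in table, which cannot be told apart, and no test was made between them.

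**Figure D2:**
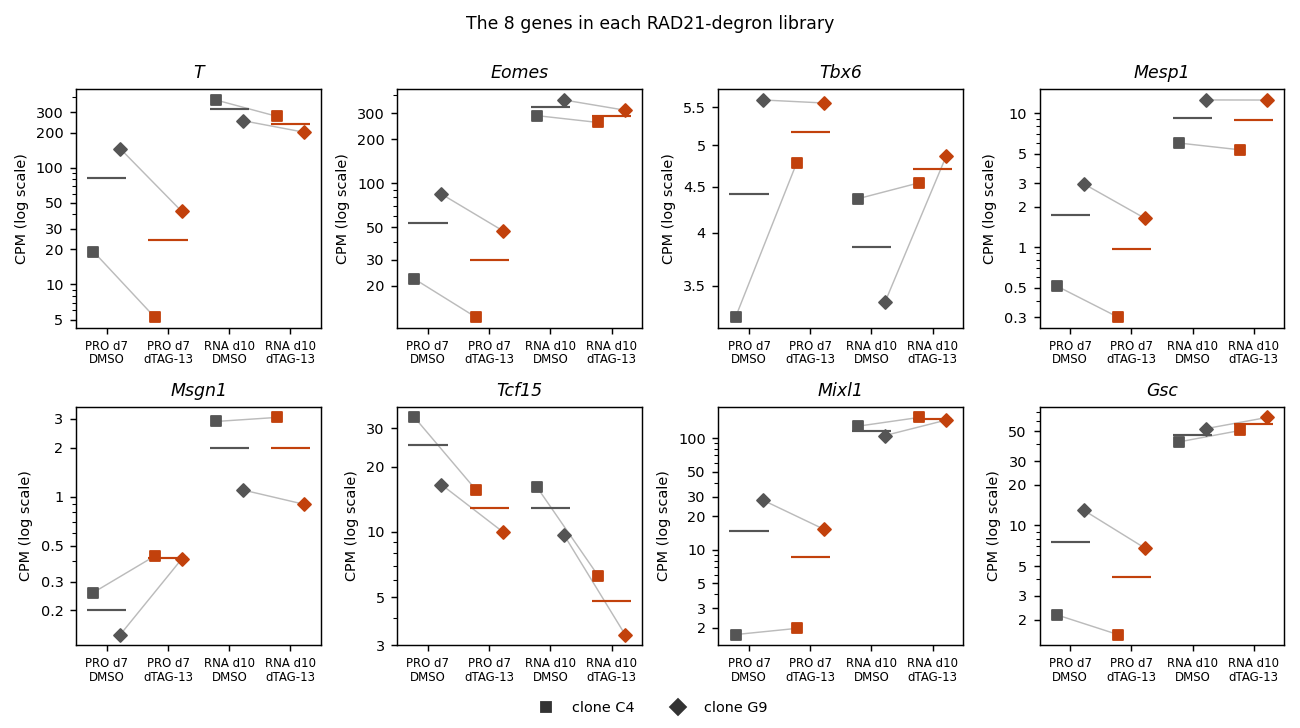
Level of each gene in every RAD21-degron library, in CPM on a log axis, for PRO-seq at day 7 and RNA at day 10, with DMSO (grey) and dTAG-13 (orange). Squares are clone C4 and diamonds clone G9, bars are group means, and lines join the libraries of a clone. T in PRO-seq drops in both clones, from 19.2 to 5.26 CPM and from 145 to 42.4 CPM.

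**Figure D3:**
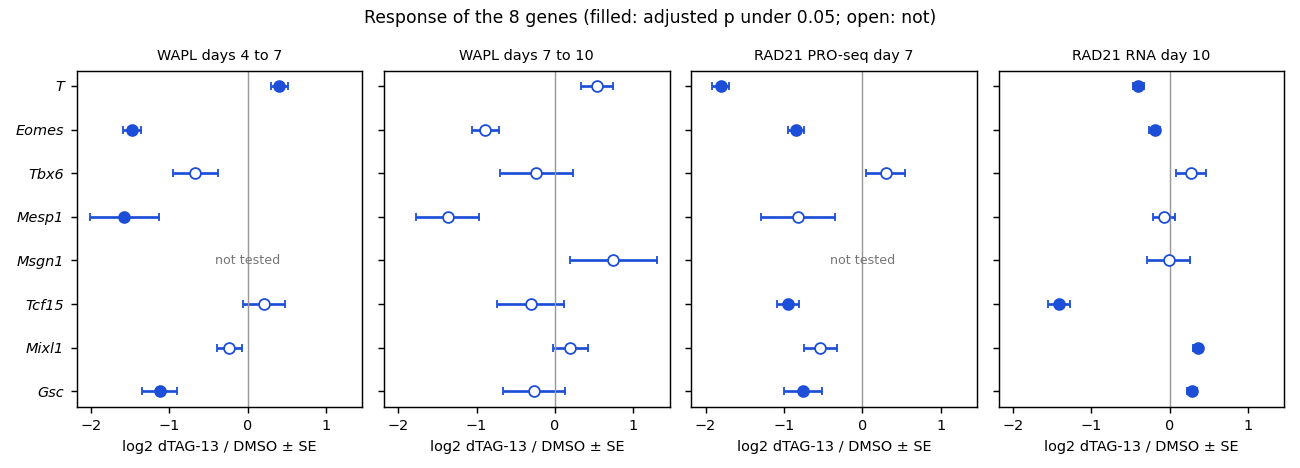
Fitted log2 change of each gene (dTAG-13 over DMSO, horizontal axis) with its SE in the 4 comparisons, with filled points for genes called at an adjusted p under 0.05. Eomes is at -1.48, -0.89, -0.84 and -0.19 from left to right, and T at 0.41, 0.54, -1.81 and -0.40.

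Markers of other cells in the RAD21 sets gave the following values, and their part in the members' changes was not tested. In PRO-seq, 7 of 14 pluripotency markers were lower, with summed levels of 710 to 865 CPM with DMSO and 510 to 710 CPM with dTAG-13, and 4 of 6 primed epiblast markers were lower (612 to 716 CPM against 365 to 389 CPM). In RNA, 9 of 14 pluripotency markers were lower (1994 to 2488 CPM against 1840 to 2109 CPM), 5 of 6 primed epiblast markers (1047 to 1171 CPM against 843 to 907 CPM) and 6 of 9 definitive endoderm markers (283 to 535 CPM against 243 to 403 CPM). Of the other lists in RNA, neural markers had 2 of 8 lower, cardiac and muscle markers 1 of 11 higher and 3 lower, haemato-endothelial markers 1 of 10 higher and 4 lower, trophoblast markers 2 of 7 higher and 3 lower, and fibroblast and feeder markers 2 of 9 higher and 3 lower. In PRO-seq these were 1 of 9 higher and 1 lower for neural, 0 of 11 for cardiac, 1 of 7 higher and 1 lower for haemato-endothelial, 1 of 8 lower for trophoblast, 1 of 8 higher for fibroblasts and 2 of 8 lower for definitive endoderm markers. The blood markers Hbb-bh1 and Hba-x and the placental marker Tpbpa were at 0 in all PRO-seq libraries. Of 14 genes of the cohesin machinery, none was called in either WAPL window, 2 were higher and 2 lower in RAD21 RNA, and 1 was higher in PRO-seq.

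The RAD21 clones differed in their levels of these genes at harvest. In PRO-seq at day 7, G9 was higher than C4 for 5 of the 7 tested members and lower for 1, where 34.9% of 16498 genes were called (17.9% higher and 17% lower). With DMSO, Mixl1 in G9 was 16.0 times its level in C4 (95% interval from counts 12.2 to 21.4), T 7.58 times (6.94 to 8.29), Gsc 5.98 times (4.55 to 7.91), Mesp1 5.79 times (3.26 to 10.7) and Eomes 3.80 times (3.47 to 4.16). The fitted log2 differences were 3.53 for Mixl1 (SE 0.22, adjusted p = 2.65e-14) and 2.96 for T (SE 0.11, adjusted p = 1.47e-19). Tcf15 was the member that was higher in C4, by 2.04 times with DMSO (log2 of G9 over C4 -0.86, SE 0.14, adjusted p = 1.68e-05).

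In RNA at day 10 the order of the clones was another one for some members. G9 was higher for 3 of the 8 members and lower for 4, where 43.2% of 14470 genes were called (21.2% higher and 22% lower). Mesp1 was higher in G9 by log2 1.14 (SE 0.14, adjusted p = 5.4e-15), while T (-0.52, SE 0.07, adjusted p = 5.84e-13), Msgn1 (-1.52, SE 0.28, adjusted p = 7.88e-07) and Tcf15 (-0.77, SE 0.14, adjusted p = 2.57e-07) were higher in C4. Eomes and Gsc were higher in G9 by 0.32 each, and Mixl1 differed by -0.18 (adjusted p = 0.00594). DESeq2 called 4 of these 7, without Mixl1 (adjusted p = 0.268) and Gsc (0.07) and gave no adjusted p for Msgn1. Each clone is 1 line with 1 library per treatment, so clone and culture cannot be told apart.

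Of the signals and targets around these factors, 90 genes were listed by role, with Chrd, Lhx1 and Mesp2 in 2 of the roles each. In WAPL days 4 to 7, 16 of 79 tested genes were higher and 10 lower. In days 7 to 10, 0 of 82 were called in the main fit, which had no replicate block. In RAD21 RNA 13 of 84 were higher and 33 lower, and in RAD21 PRO-seq 2 of 82 were higher and 21 lower. The shares over all genes tested are those given above. The list was written with earlier results of these data known, and nothing particular to it is drawn from the counts.

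Ligands of the streak moved in mixed directions under WAPL degradation and mostly down under RAD21 degradation. On days 4 to 7, 5 of 11 were higher and 3 lower: Bmp4 rose by log2 1.40 (SE 0.14, adjusted p = 0.00196) and Wnt8a by 0.65 (SE 0.11, adjusted p = 0.00792), while Fgf8, which streak cells need to migrate away, fell (-1.36, SE 0.10, adjusted p = 0.000738). Wnt8a was not called without the DMSO or the dTAG-13 library of clone H2 (adjusted p = 0.0883 and 0.0894). In PRO-seq 6 of 12 were lower and none higher, among them Fgf8 (-1.05, SE 0.09, adjusted p = 7.17e-10) and Wnt8a (-1.02, SE 0.12, adjusted p = 2.12e-07). Wnt5a is counted among them (-1.002, adjusted p = 0.0373), but it was at 0.15 from clone C4 alone and -2.46 from clone G9 alone, and DESeq2 did not call it (0.82). In RAD21 RNA 8 of 11 were lower and 2 higher, with Bmp4 at -0.92 (SE 0.06, adjusted p = 1.06e-44), Wnt5a at -0.96, Wnt8a at -1.07 and Fgf4 at -0.78 (-0.53 from clone C4 alone and -1.22 from clone G9 alone).

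Of the receptors and antagonists, 2 of 13 were higher and 2 lower on days 4 to 7 of WAPL, with the Nodal antagonist Cer1 at -1.65 (SE 0.35, adjusted p = 0.0193) and the activin receptor Acvr2b at -0.69 (SE 0.09, adjusted p = 0.00385). Without the DMSO or the dTAG-13 library of clone H2, Cer1 was at -1.05 and not called (adjusted p = 0.287 and 0.262), and it was not called without the DMSO library of H7 replicate 1 (0.0505). Acvr2b was not called without the DMSO or the dTAG-13 library of clone H2 either (0.0517 and 0.0514). In RAD21 RNA 1 of 13 was higher and 5 lower, with the Nodal antagonists Lefty2 at -0.41 (SE 0.06, adjusted p = 7.24e-11) and Lefty1 at -0.34 (SE 0.06, adjusted p = 1.13e-07, not called by DESeq2 at 0.0504). In PRO-seq 1 of 12 was lower, the Nodal co-receptor Tdgf1 (-0.35, SE 0.07, adjusted p = 0.000924), at -0.20 from clone C4 alone and -0.49 from clone G9 alone. The transcription factors that carry the signals, such as the SMAD and TCF proteins, had 1 of 12 lower in WAPL days 4 to 7 (Tcf7l1, -0.50, a call lost without either library of clone H2 or either DMSO library of clone H7, with adjusted p-values of 0.0558 to 0.182), 2 of 12 higher and 1 lower in RAD21 RNA, and 1 of 11 higher and 2 lower in PRO-seq, each of these by less than 0.3 on the log2 scale in the RAD21 sets.

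Wnt and Nodal targets had 1 of 12 higher on days 4 to 7, the caudal factor Cdx1, which went from 0.818 ± 0.204 CPM with DMSO to 3.69 ± 0.505 CPM with dTAG-13 (SD, n = 3). In RAD21 RNA 4 of 12 were higher and 2 lower. Axin2, a feedback inhibitor of Wnt signalling, rose by 0.54 (SE 0.06, adjusted p = 9.42e-19) and Evx1 by 0.48 (SE 0.06, adjusted p = 1.69e-14). In PRO-seq 2 of 12 were lower, Sp5 (-0.93, SE 0.14, adjusted p = 1.69e-05) and Evx1 (-0.54, SE 0.15, adjusted p = 0.0142). Evx1 therefore had opposite signs in the PRO-seq and RNA sets, as Gsc did, and DESeq2 did not call it in PRO-seq (0.239). By clone, Evx1 was at -0.33 in C4 and -0.70 in G9 in PRO-seq, and at 0.64 in C4 and 0.30 in G9 in RNA.

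The genes called in the anterior streak and node list were mostly lower. On days 4 to 7 of WAPL, Foxa2, the forkhead factor of node and endoderm, fell by 2.03 on the log2 scale (SE 0.23, adjusted p = 0.00248) and Otx2 by 0.83 (SE 0.12, adjusted p = 0.00567), while Sox17 was higher (1.33, adjusted p = 0.0367). Without the DMSO or the dTAG-13 library of clone H2, Otx2 was not called (adjusted p = 0.0658 and 0.0662), and Sox17 was called only without the dTAG-13 library of H7 replicate 1 when each library was left out in turn. In PRO-seq 3 of 7 were lower, with Foxa2 at -1.50 (SE 0.32, adjusted p = 0.00173) and Lhx1 at -1.37 (SE 0.23, adjusted p = 6.31e-05, DESeq2 0.639). Lhx1 was at -0.29 from clone C4 alone and -2.004 from clone G9 alone, and Foxa2 at -0.93 and -1.85. In RAD21 RNA 5 of 8 were lower, with Shh at -1.74 (SE 0.20, adjusted p = 4.44e-17).

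Nascent mesoderm genes had 4 of 17 higher and 1 lower on days 4 to 7 of WAPL, with Hand1 at 1.28 (SE 0.15, adjusted p = 0.00287) and Etv2, the factor that starts the blood and vessel lineages, at -2.16 (SE 0.22, adjusted p = 0.0021). In PRO-seq 7 of 15 were lower, with the apelin receptor Aplnr at -2.71 (SE 0.46, adjusted p = 7.94e-05) and its ligands Apln at -2.10 (SE 0.21, adjusted p = 4.54e-09) and Apela at -1.06. Aplnr had 22 counts with DMSO and 1 with dTAG-13 in clone C4, the latter under the limit of 3 counts, and 114 and 20 counts in clone G9, where the log2 change was -2.55. In RAD21 RNA 9 of 17 were lower and 1 higher, with the vascular receptor Kdr at -0.87 (SE 0.07, adjusted p = 6.52e-35) and Apela at -0.74. Presomitic and somitic genes had 4 of 11 higher and 1 lower on days 4 to 7, with the retinoic acid enzyme Aldh1a2 at 2.55 (SE 0.23, adjusted p = 0.00172). In PRO-seq 1 of 16 was higher and 1 lower, the latter the retinoic acid-degrading enzyme Cyp26a1, which fell by 2.28 on the log2 scale (SE 0.22, adjusted p = 4.59e-09). In RAD21 RNA 4 of 14 were lower and 3 higher, with Foxc2 at -3.99 (SE 0.27, adjusted p = 6.85e-45) and the Notch ligand Dll1 at -1.20 (SE 0.12, adjusted p = 2.21e-20).

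**Figure D4:**
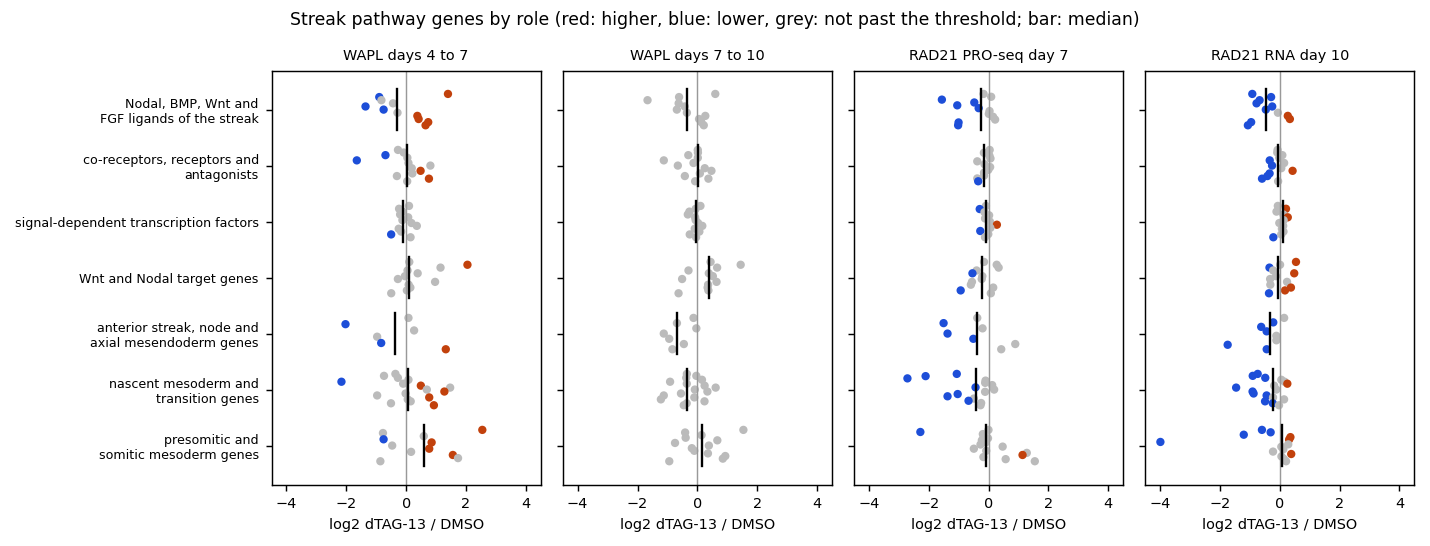
Log2 change (dTAG-13 over DMSO, horizontal axis) of the tested pathway genes by role in the 4 comparisons, 1 point a gene, with red for higher, blue for lower, grey for not called and a bar for the median. Blue points outnumber red ones in both RAD21 sets (21 against 2 genes in PRO-seq and 33 against 13 in RNA).

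The genes next to the members in the RefSeq order of GRCm38.p6 were mostly not called, as were most of all genes tested. Over all genes, 15.2% were called on days 4 to 7 of WAPL, 10.7% in PRO-seq and 18.7% in RAD21 RNA. Nothing particular to the neighbours is drawn from their counts. On days 4 to 7 of WAPL 2 of 15 tested neighbours were higher, Mesp2 beside Mesp1 (log2 0.77, SE 0.21, adjusted p = 0.0411) and Srxn1 beside Tcf15 (0.94, adjusted p = 0.0109). Srxn1 was not called without the DMSO or the dTAG-13 library of clone H2 (adjusted p = 0.0785 and 0.0798). Mesp2, a paralogue of Mesp1 with a role in somite segmentation, thus had the opposite sign to Mesp1, and its call was lost with limma-voom (0.0536) and, among the 6 libraries left out in turn, held only without the dTAG-13 library of H7 replicate 2. Both neighbours of Eomes (Cmc1 and Golga4) and of T (T2 and Pde10a) were not called there. In PRO-seq 2 of 15 neighbours were lower, Pde10a beside T (-0.40, adjusted p = 0.00273) and Kcns3 beside Msgn1 (-0.81, adjusted p = 0.00537), neither called by DESeq2 (0.0784 and 0.197), and T2, on the other side of T, was at 101 CPM with DMSO and 96.7 CPM with dTAG-13 (mean of 2 libraries each). Whether the counting used strand is not given in the sources used here, so reads of overlapping genes cannot be told apart. In RAD21 RNA 2 of 16 neighbours were higher, Srxn1 (0.55, adjusted p = 7.53e-13) and Golga4 (0.16, adjusted p = 0.0367), and 2 lower, Pde10a (-0.34, adjusted p = 0.0111) and Kcns3 (-0.55, adjusted p = 0.00741). DESeq2 did not call Golga4 (0.761), Pde10a (0.636) or Kcns3 (0.586).

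Likeness between members over the 14 RNA libraries was measured as Pearson's r of log2(CPM + 0.5) centred on the mean of each table. The closest pairs were Tbx6 and Gsc (r = 0.89), T and Msgn1 (0.82), Mixl1 and Gsc (0.81) and Eomes and Mesp1 (0.81). Tbx6, Msgn1 and Mesp1 had few counts in the WAPL libraries, and Msgn1 was at or near the limit of detection at day 7. The r values of their pairs rest partly on such low values. T and Eomes had r = -0.33. Of all other genes, the most like T was Ctnnb1 (r = 0.90), the most like Eomes were Eef2k (0.96) and Tmem28 (0.96), and the most like Mesp1 was Dapk2 (0.93). Klf2 (0.89) was among the 3 most like Tcf15, Per1 (0.93) among those of Mixl1, Rps6ka2 (0.95) led for Gsc, Zcchc3 (0.91) for Tbx6 and Mypn (0.88) for Msgn1. These are descriptions: the points share clones, depth and treatment, and the genes were picked as the highest of 11416 or 11417 candidates.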

How the data were processed

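Poly(A) RNA and PRO-seq libraries were grouped by treatment, clone and window as their titles and descriptions give them. The 3 RNA tables hold whole-number counts per gene as deposited, not normalized. The deposited PRO-seq table holds expected counts, all multiples of 0.5, and these were rounded for the tests. The submitters' processing notes name TopHat2, Novoalign, Bowtie2, HOMER, cutadapt, bedtools, DESeq and DESeq2 and the builds mm9, hg19 and dm6, with no role or version. How reads were assigned to genes, with or without strand, and whether genes were filtered is not given in the sources.

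Each table was fitted whole with edgeR 4.0.16 (R 4.3.3): TMM scaling, genes kept by filterByExpr (minimum count 10), the quasi-likelihood test and Benjamini-Hochberg adjustment over all genes tested, with the clone as a term where there were 2 clones. SE is the size of the log2 change divided by the square root of the F statistic. Residual degrees of freedom were 3 and 2 for the WAPL windows, 1 for each RAD21 set and 5 for the window difference and the day difference, which were fitted on all 10 WAPL libraries over the genes in both tables. Alternatives were other scalings (RLE, library totals), filters (none, or a mean count from 50 up), the tests of DESeq2 1.42.0 and of voom in limma 3.58.1, the replicate number as a block, no clone term, clone H7 alone, unrounded expected counts, and leaving out each library. In the RAD21 sets the last leaves no residual degrees of freedom and gives a value with no test. Leaving out libraries for the window, day and clone differences was chosen after seeing the data.

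In the day 4 to 7 window, deviations from the group means correlated between same-numbered DMSO and dTAG-13 libraries (r = 0.552 and 0.573 for clone H7, and 0.669 for the clone H2 pair) and not between differently numbered ones of clone H7 (-0.0112 and 0.0915). The numbers, taken from the labels for clone H7, were therefore run as a block, but only as an alternative. The main fit had the clone as a term and no block, and its SE and p-values leave the pairing out. Days 7 to 10 have only 2 such pairs, and the block was an alternative there too. Clone H2 carries no replicate number in its labels and was paired by clone. Libraries of a RAD21 clone correlated likewise (0.736 in RNA and 0.762 in PRO-seq). Libraries of 1 group differed by more than counting noise (chi-square per gene of 12.9 to 55.3), so none was counted as a repeat.

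The members and the gene lists were chosen with earlier results of these data known. Genes named with values are the 8 members, up to 4 genes of each role list with the smallest p among those called, or the 1 with the smallest p where none was, the nearest measured gene on each side of a member, and Rad21 and Wapl. The 3 genes most like each member had an average log2 CPM of at least 2, with predicted genes and small RNAs left out. Marker lists for pluripotent, primed epiblast, neural, definitive endoderm, cardiac and muscle, haemato-endothelial, trophoblast and fibroblast or feeder cells were examined. The test was tried on simulated data first. Figures were drawn with matplotlib 3.10.9. The series' ChIP-seq, Hi-C and other libraries were not used here.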

Additional observations from a re-analysis of the deposited data

Results flagged for a closer look

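The clones had opposite signs for 3 members. In RAD21 PRO-seq, Mixl1 differed by log2 0.18 in C4 and -0.87 in G9, a difference of -1.05. Tbx6 differed there by 0.57 in C4 and -0.01 in G9, a difference of -0.577. In RAD21 RNA, Msgn1 differed by 0.08 in C4 and -0.29 in G9, a difference of -0.376. The 95% intervals from counts of the treated over control ratio included no change for 1 or both clones of each gene. They were 0.758 to 1.69 for Mixl1 in C4 and 0.719 to 1.37 for Tbx6 in G9. For Msgn1 they were 0.759 to 1.48 in C4 and 0.388 to 1.60 in G9. With 1 library per clone and treatment the differences were not tested.

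Gsc moved in opposite directions in the RAD21 sets. Both clones were lower in PRO-seq at day 7 (mean log2 -0.71) and higher in RNA at day 10 (0.28), a difference of 0.989 that was not tested. In C4 the treated level in PRO-seq was 0.714 of control, and its 95% interval from counts, 0.466 to 1.07, included no change. DESeq2 called Gsc in neither set (adjusted p = 0.444 in PRO-seq and 0.377 in RNA).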

How the results depend on the processing

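Of 689 values of the members recomputed under the alternatives, 614 were counted as unchanged, 47 lost the call, 7 gained it and 21 changed sign. The count of unchanged values includes those with no test, from leaving out a library in the RAD21 sets or for G9 against C4. These have no side of the threshold, and they were counted as unchanged even where the sign differed. An example is Mixl1 in PRO-seq, at log2 -0.53 in the main fit and up to 0.19 with a library left out. Where a cause is not given below, the cause was not tested.

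For WAPL days 4 to 7 (2209 genes and 4 members called), no clone term gave 994 genes and 1 member, clone H7 alone 360 and 1, and a mean count of at least 50, which tests fewer genes, 2 members. Leaving out each library gave 341 to 4433 genes and 1 to 3 members. For days 7 to 10 (0 genes), DESeq2 called 44 and leaving out a library 27 to 143. In RAD21 RNA (2708 genes, 5 members), DESeq2 called 472 and 3. In PRO-seq (1764 genes), DESeq2 called 507. DESeq2 called 4 genes for the window difference, 1709 genes and 4 members for G9 against C4 in RNA (6248 and 7), 2836 genes in PRO-seq (5750), 1050 for H2 against H7 (569) and 1520 for day 10 against day 7 (860). Clone H7 alone gave 358 genes for day 10 against day 7. Leaving out a library gave 267 to 1372 genes and 2 to 4 members for H2 against H7, and 168 to 845 genes and 1 to 3 members for day 10 against day 7.

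The replicate number as a block gave 3993 genes and the same 4 members for days 4 to 7 (adjusted p = 0.0177 for T, 9.48e-06 for Eomes, 0.0242 for Mesp1 and 0.00318 for Gsc). In days 7 to 10, where only 2 pairs share a number (r = 0.828), the block called 5141 genes and 4 members (adjusted p = 6.14e-13 for Eomes, 1.02e-06 for T, 0.000195 for Mesp1 and 0.0369 for Gsc). It called 5 genes and no member for the window difference. In the RAD21 sets the clone is the block, and without it 1 gene and 0 members were called in RNA and 0 genes and 0 members in PRO-seq. A block for day 10 against day 7 was not run, because the number is nested in the day. The block changed no other call of a member.

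None of the sign changes of members was in a called value. With a library left out, Tcf15 ran from log2 -0.11 (without dTAG-13 replicate 1) to 0.52 in days 4 to 7. In days 7 to 10 it ran from -0.75 to 0.21 (0.07 without dTAG-13 replicate 2), Tbx6 from -0.71 to 0.26 and Gsc from -0.88 to 0.20. In RAD21 RNA, Msgn1 was at 0.093 without the clone term. Among the other named genes, Wnt5a, called lower in PRO-seq, changed sign: it was at -2.46 from G9 alone and 0.15 from C4 alone, and its call was lost with DESeq2 (adjusted p = 0.82), library totals (0.0723) and unrounded counts (0.0635). For the window difference, Msgn1 was at 0.56 with clone H7 alone and ran from -0.97 to 0.56 with a library left out, Mesp1 from -0.18 to 0.69, T from -0.089 to 0.32 and Tbx6 from -0.042 to 0.91. For H2 against H7, Tcf15 ran from -0.14 to 0.36, and for day 10 against day 7, Tbx6 from -0.15 to 0.14 and Eomes from -0.070 to 0.20. At the depth of these libraries, Msgn1 at day 7 was at or near the limit of 3 counts, and Mesp1 and Tbx6 in the WAPL sets rest on 71 counts or fewer.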

Other observations

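After WAPL degradation on days 4 to 7, markers of later mesoderm did not move as a block. The cardiac and muscle genes Tnnt2 (log2 1.80, adjusted p = 0.0222 by edgeR's quasi-likelihood test), Actc1 (1.24, adjusted p = 0.0254) and Nkx2-5 (1.01, adjusted p = 0.0297) rose. Actc1 went from a mean of 30.9 to 70.1 CPM, while Tnnt2 stayed low, at 0.236 and 0.810 CPM. Of 9 blood and vessel genes tested, 1 was higher and 2 lower. Tal1, a regulator of early blood formation, fell by 1.73 on the log2 scale (adjusted p = 0.00357), from 4.64 to 1.40 CPM, and Etv2 by 2.16. Gata2, a factor of blood progenitors, rose by 1.03 (adjusted p = 0.0162), from 9.95 to 19.3 CPM. The keratin Krt8 rose by 1.25 (adjusted p = 0.00363), from 174 to 404 CPM, and the smooth muscle actin Acta2 by 2.38 (adjusted p = 0.00755), from 96.0 to 447 CPM. Without the dTAG-13 library of clone H2, Gata2 (adjusted p = 0.0708), Tnnt2 (0.0952), Actc1 (0.177) and Nkx2-5 (0.16) were not called. The same 4 genes were not called without the DMSO library of that clone (0.0693, 0.0978, 0.177 and 0.159). Without the DMSO library of H7 replicate 2, Actc1 (0.0726) and Nkx2-5 (0.0888) were not called, and Nkx2-5 was not called without either library of H7 replicate 1 (0.0966 and 0.0502). Tnnt2 was not called by DESeq2 (0.0756). Tal1, Krt8 and Acta2 were called with each library left out in turn. These genes were chosen from the marker lists after their values were seen.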
